A study of Mus musculus with 14 samples.

Results

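The cytosolic and endoplasmic reticulum (ER) heat shock chaperones were followed in splenic regulatory T cells of mice, through 9 genes: Hspa1a, Hspa1b, Hspa8, Hsp90aa1, Hsp90ab1, Dnaja1, Dnajb1, Hsph1 and Hspa5. They were chosen by name, among 30284 genes of the tables and 15775 genes tested. The study asked what these cells express when talin-1, the adaptor that switches integrins to their active form, is deleted. The talin KO mice were Tln1 fl/fl Foxp3 cre/wt and the control mice were Tln1 wt/wt Foxp3 cre/wt. All were labelled C57/B6, without an age, and cells were taken as Foxp3+ YFP+. Both groups carry 1 Cre allele driven by the X-linked Foxp3 gene, so the deletion is limited to cells that express Foxp3 from that allele, and each library held cells of 1 or 2 animals. The 14 samples formed 3 talin KO units and 4 control units, each a number in the sample titles with its 2 parts summed.

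Heat shock proteins bind unfolded stretches of other proteins and help them to fold. HSP70 proteins do so in cycles of ATP use that J proteins start and exchange factors of the HSP110 family end, and HSP90 proteins then act on clients that are nearly folded. The heat shock factor Hsf1 switches on the inducible members through heat shock elements in their promoters. The ER has its own HSP70, BiP, which also holds the sensors of the unfolded protein response (UPR) inactive. T cells use HSP90 and HSP70 for the kinases of receptor signalling, and chaperone transcripts are known to rise when T cells are activated.

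The units held 39314880 to 56772674 estimated reads in the talin KO group and 13017008 to 39706502 in the control group. Tln1, the targeted gene, was at 788, 901 and 1014 CPM (read counts scaled to library size) in talin KO units 1 to 3 and at 634, 543, 847 and 649 CPM in control units 1 to 4. On the log2 scale the difference was 0.43 ± 0.18 (SE; edgeR quasi-likelihood test, Benjamini-Hochberg adjusted p = 0.126), so the gene's total was not lower in the units labelled as KO by this fit. It was -0.23 with limma on log2(TPM + 1), without passing the test there either. These are called talin KO-labelled units from here on, and every direction rests on the labels. The labels do not name the exons that the floxed alleles lose, and a transcript that lacks some exons is still counted. The 12 regulatory T cell markers summed to 2794 to 3643 CPM in the talin KO-labelled units and 4445 to 5397 CPM in the control units. Of the 12, 6 passed the test as lower and 0 as higher, against 6.52% and 7.07% of all genes. Foxp3, the gene by which cells were taken, was at 370, 514 and 401 CPM in talin KO-labelled units 1 to 3. It was at 468, 324, 478 and 406 CPM in control units 1 to 4. Its groups overlapped (log2 fold change 0.03 ± 0.18, SE; edgeR adjusted p = 0.923). The marker lists of other cells were higher in the talin KO-labelled units, with no overlap of their sums. The 8 plasma cell markers summed to 856 to 2080 CPM in the talin KO-labelled units and 109 to 414 CPM in the control units. Jchain made up most of the sum in the talin KO-labelled units, at 1469, 736 and 1898 CPM in units 1 to 3. Jchain itself did not pass the test (edgeR adjusted p = 0.0776). Of the 8 markers, 4 passed as higher and 0 as lower, against 7.07% and 6.52% of all genes. The 10 B cell markers summed to 183 to 393 CPM in the talin KO-labelled units and 32.9 to 89.1 CPM in the control units. Both lists are meant to mark cells outside the gated type. Prdm1 and Irf4 of the plasma cell list were nonetheless at 13.6 to 21.4 CPM and 48.9 to 62.6 CPM in the control units. Prdm1 also overlapped between the groups. For 9 neutrophil precursor markers the sums were 263 to 1609 CPM in the talin KO-labelled units and 1.95 to 15.3 CPM in the control units. For 10 myeloid markers they were 283 to 737 CPM in the talin KO-labelled units and 13.2 to 163 CPM in the control units. Talin KO-labelled unit 3 was the highest in both lists. For 10 erythroid and platelet markers the sums were 194, 64.4 and 2228 CPM in talin KO-labelled units 1 to 3 and 6.59 to 35.8 CPM in the control units. The high end thus came from talin KO-labelled unit 3 alone. For 7 dendritic cell markers they were 97.0 to 133 CPM in the talin KO-labelled units and 55.1 to 77.2 CPM in the control units. For 9 cytotoxic markers they were 60.3 to 112 CPM in the talin KO-labelled units and 33.3 to 42.5 CPM in the control units. In these lists 0 markers were at 0 in every control unit. Markers that passed as higher were 8 of 10 for B cells, 8 of 9 for neutrophil precursors and 4 of 10 for myeloid cells. They were 5 of 9 for cytotoxic cells, 2 of 7 for dendritic cells and 1 of 9 tested for erythroid cells and platelets. In these lists 0 markers passed as lower. In bulk samples, fewer cells of a type and less RNA per cell cannot be told apart. Nothing in the labels says which animals stand behind a unit, so p-values measure the spread between units, which may be technical.

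The promoters show which regulatory letters each member carries. Windows of 250 bases before the transcription start were available for 6 of the 9 members in a RefSeq table (build GRCm38.p6), and Hspa8, Hsp90aa1 and Hsp90ab1 had no entry. Dnaja1 has 3 windows in that table, Dnajb1 and Hsph1 have 2 each and the others 1. Both strands were searched for GAANNTTC and TTCNNGAA, the pairs of inverted units that heat shock factors bind, which overlap by 3 letters where units follow each other, and for the ER stress element, which is CCAAT and CCACG with 9 bases between them. Among 32851 windows of the same length, 6.69% held GAANNTTC, 7.17% held TTCNNGAA, 12.8% held either and 0.113% held the ER stress element. Hspa1a and Hspa1b lie side by side on the minus strand of chromosome 17, 9952 bases apart, and their windows are printed because the pair is nearly one sequence. A Dnajb1 window is printed because Dnajb1 was the member that passed the test. Its other window lies wholly inside the annotated gene and held 0 elements as well. Capitals mark the element found.
Hspa1a, chr17:34972157-34972406, minus strand: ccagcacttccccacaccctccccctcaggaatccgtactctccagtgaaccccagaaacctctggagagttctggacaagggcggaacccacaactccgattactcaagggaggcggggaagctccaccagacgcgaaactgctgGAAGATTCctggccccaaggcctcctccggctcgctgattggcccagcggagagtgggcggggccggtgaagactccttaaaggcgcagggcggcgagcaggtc
Hspa1b, chr17:34959239-34959488, minus strand: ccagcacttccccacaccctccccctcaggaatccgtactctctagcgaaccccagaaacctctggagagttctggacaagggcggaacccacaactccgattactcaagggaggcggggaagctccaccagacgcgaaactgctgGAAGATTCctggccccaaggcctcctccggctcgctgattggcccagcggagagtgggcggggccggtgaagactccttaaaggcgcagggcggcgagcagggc
Dnajb1, chr8:83607925-83608174, plus strand, 0 elements found: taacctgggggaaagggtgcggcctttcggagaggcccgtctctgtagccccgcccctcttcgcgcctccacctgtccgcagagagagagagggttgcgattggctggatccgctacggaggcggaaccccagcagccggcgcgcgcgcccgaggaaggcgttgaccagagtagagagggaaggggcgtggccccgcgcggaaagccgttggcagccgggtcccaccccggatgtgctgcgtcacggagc

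The Hspa1a and Hspa1b windows were 98.8% identical and differed at 3 of 250 bases. Counted from the 5′ end of the window, with the Hspa1a base first, the differences were C44T, T47C and T249G, and none lies in the element, which starts at base 147 of both. The other elements are shown as 30 bases each. Their windows lie partly (Hsph1, Hspa5) or wholly (Dnaja1) inside the annotated gene.
Hsph1, chr5:149636351-149636380, minus strand: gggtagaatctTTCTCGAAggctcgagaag
Dnaja1, chr4:40722333-40722362, plus strand: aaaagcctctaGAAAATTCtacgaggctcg
Hspa5, chr2:34772020-34772049, plus strand: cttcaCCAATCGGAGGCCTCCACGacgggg
Hsph1 thus held the TTCNNGAA form in both of its windows, Dnaja1 held GAANNTTC in 1 of 3 windows and no element in the other 2, and Hspa5 held the ER stress element between 65 and 47 bases before the start. A match is a description of letters, and a window without one says only that these letters were not found in it.

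In gene totals per length, the constitutive cytosolic members stood at the top of the order and Hsph1 and the inducible HSP70 genes at the bottom. Levels between genes are given in TPM, which are scaled by transcript length and to 1 total per unit, as mean ± SD over 3 talin KO-labelled units and over 4 control units. Hspa8, the constitutive cytosolic HSP70, averaged 1007 ± 289 TPM in the talin KO-labelled units and 941 ± 169 TPM in the control units. Hsp90ab1, the constitutive HSP90, averaged 936 ± 138 TPM in the talin KO-labelled units and 763 ± 203 TPM in the control units. Both lay above Hsp90aa1, the inducible HSP90, which averaged 580 ± 89.3 TPM in the talin KO-labelled units and 394 ± 113 TPM in the control units. Hspa5 followed with 335 ± 12.1 TPM in the talin KO-labelled units and 202 ± 39.7 TPM in the control units. Dnaja1 averaged 212 ± 42.2 TPM in the talin KO-labelled units and 187 ± 93.2 TPM in the control units. The lowest 4 members were under 100 TPM on average in either group. Dnajb1 averaged 61.2 ± 14.3 TPM in the talin KO-labelled units and 31.1 ± 8.29 TPM in the control units. Hspa1b averaged 52.9 ± 56.7 TPM in the talin KO-labelled units and 12.2 ± 13.2 TPM in the control units. For the inducible HSP70 genes the SD was thus above the mean in both groups. Hspa1a averaged 25.7 ± 26.6 TPM in the talin KO-labelled units and 3.14 ± 3.65 TPM in the control units, and Hsph1 averaged 16.9 ± 5.60 TPM in the talin KO-labelled units and 11.7 ± 5.59 TPM in the control units. Among neighbours in the control order, only Hsp90aa1 against Hspa5 and Dnaja1 against Dnajb1 had ranges that did not overlap in the control units. In the talin KO-labelled units, Hsp90ab1 against Hsp90aa1 and Hspa5 against Dnaja1 did not overlap either. Together the 9 genes made up 0.279%, 0.300% and 0.388% of TPM in talin KO-labelled units 1 to 3 and 0.309%, 0.175%, 0.245% and 0.289% in control units 1 to 4. Gene totals in TPM give weight to short transcripts. The retained-intron transcript Hsp90aa1-204, 325 bases long, held 40.2% of the TPM of Hsp90aa1 but 5.90% of its reads. That of Hspa8, Hspa8-204, held 42.4% of TPM but 11.4% of reads. In coding transcripts alone the order changed. Hsp90ab1 averaged 793 TPM in the talin KO-labelled units and 679 TPM in the control units, above Hspa8 at 314 and 441 TPM. Hspa5 was above Hsp90aa1 in the control units only, at 148 against 129 TPM. Dnaja1 was the lowest member in the talin KO-labelled units only. Overlap of ranges was not tested for coding transcripts.

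Between the groups, 1 of the 9 members passed the test, Dnajb1, which was higher in the talin KO-labelled units. The same test called 13.6% of all 15775 genes, 7.07% higher and 6.52% lower, so 1 call among 9 members is near the share of all genes. The log2 fold change was above 0 for 8 of the 9 members, with a median of 0.59, against 54.2% of all genes and a median of 0.06. The talin KO-labelled and control units did not overlap for 3 of the 9, Dnajb1, Hspa5 and Hsp90ab1, all higher in the talin KO-labelled units, against 30.8% of all genes in either direction and 16.7% in this one.

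**Figure D1:**
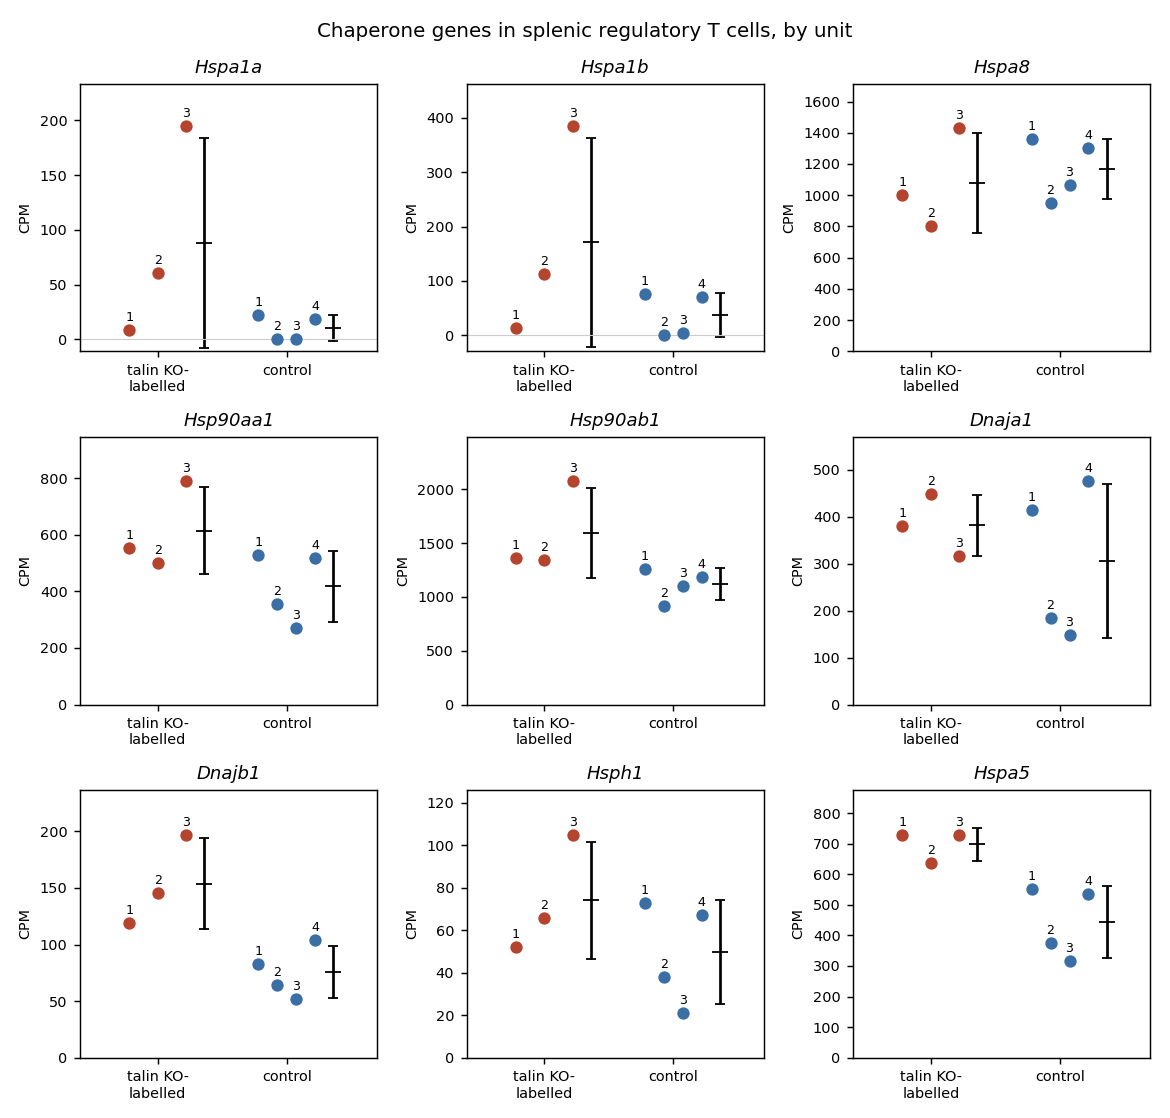
CPM of each chaperone gene (y axis, linear, 1 panel a gene) in 3 talin KO-labelled units and 4 control units (points, with the unit number above each), with mean and SD as bars beside the points. Dnajb1, Hspa5 and Hsp90ab1 do not overlap between the groups, and control units 1 and 4 lie above control units 2 and 3 in every panel.

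Dnajb1 encodes a J protein that hands clients to cytosolic HSP70 and starts its ATP cycle. It was at 119, 146 and 197 CPM in talin KO-labelled units 1 to 3 and at 82.5, 63.9, 51.9 and 104 CPM in control units 1 to 4. Every talin KO-labelled unit was above every control unit, with talin KO-labelled unit 1 and control unit 4 close to each other. The means were 154 ± 39.9 CPM in the talin KO-labelled units and 75.6 ± 22.7 CPM in the control units (SD, n = 3 and n = 4). The difference was 2.04-fold, or 1.03 ± 0.25 (SE) on the log2 scale, and passed edgeR's quasi-likelihood test after Benjamini-Hochberg adjustment (adjusted p = 0.0329). Leaving out each unit in turn ended the call in 4 of 7 fits, with an edgeR adjusted p of 0.0564 without control unit 1, 0.0850 without control unit 2, 0.0748 without talin KO-labelled unit 2 and 0.110 without talin KO-labelled unit 3. With an offset for GC content and length, the log2 fold change was 0.54 (edgeR adjusted p = 0.100), or 0.82 above the median of all genes, which that offset moved by -0.34. Dnajb1 has 1 transcript in the tables, and the largest share of its 31-base words found in any other gene was 0.271%, so its reads were hardly shared.

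Hspa1a and Hspa1b encode the inducible cytosolic HSP70, which is nearly absent from unstressed cells, and they varied more between units than any other members. Hspa1a was at 8.63, 60.8 and 195 CPM in talin KO-labelled units 1 to 3 and at 22.3, 0, 0.05 and 19.0 CPM in control units 1 to 4. In reads this was 390, 2384 and 10985 in the talin KO-labelled units and 283, 0, 2 and 249 in the control units. Control units 1 and 4 were thus above talin KO-labelled unit 1, while control units 2 and 3 were at or near 0. Hspa1b was at 14.4, 113 and 386 CPM in talin KO-labelled units 1 to 3 and at 75.8, 0.782, 3.80 and 70.6 CPM in control units 1 to 4. It followed the same order of units, and the groups overlapped for both genes. Hspa1a had a log2 fold change of 3.15 ± 1.97 (SE; edgeR adjusted p = 0.333). That of Hspa1b was 2.20 ± 1.72 (SE; edgeR adjusted p = 0.438). Without talin KO-labelled unit 3 it was 1.79 for Hspa1a and 0.78 for Hspa1b. The transcripts of the pair share most of their sequence, 63.8% of the 31-base words of Hspa1a and 67.7% of those of Hspa1b, so how reads were split between them is uncertain. Their sum was 23.1, 174 and 580 CPM in talin KO-labelled units 1 to 3 and 98.1, 0.782, 3.85 and 89.6 CPM in control units 1 to 4. The spread seen in each gene thus held for the sum, whose log2 fold change was 2.45 ± 1.78 (SE; edgeR adjusted p = 0.403). Gm20481 overlaps Hspa1a on the opposite strand and holds 17.4% of its 31-base words. Strand was not kept in these libraries, so reads from the shared stretch cannot be told apart.

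Hspa8 encodes the HSP70 that cells make at all times. It was at 1003, 805 and 1429 CPM in talin KO-labelled units 1 to 3 and at 1358, 948, 1067 and 1304 CPM in control units 1 to 4. The groups overlapped fully, with talin KO-labelled unit 2 the lowest and unit 3 the highest of all. The log2 fold change was -0.12 ± 0.22 (SE; edgeR adjusted p = 0.751), between -0.37 without talin KO-labelled unit 3 and 0.06 without talin KO-labelled unit 2. Reads were also assigned to processed pseudogenes that nearly copy the Hspa8 transcript. Gm15459, a processed pseudogene of Hspa8 on chromosome 5 (GRCm38, 5781615 to 5783555, minus strand), was at 627, 664 and 900 CPM in talin KO-labelled units 1 to 3. It was at 1.81, 1.76, 1.27 and 1.22 CPM in control units 1 to 4. The groups were far apart, with a log2 fold change of 8.93 ± 0.24 (SE; edgeR adjusted p = 2.49e-08). This gene was chosen after its values were seen, because it holds 39.9% of the 31-base words of Hspa8. In the single samples it was between 634 and 908 CPM in the 6 talin KO-labelled samples and between 0 and 3.40 CPM in the 8 control samples, here without TMM scaling. Gm8355, another processed pseudogene of Hspa8, was at 165, 106 and 204 CPM in talin KO-labelled units 1 to 3 and at 136, 140, 101 and 130 CPM in control units 1 to 4. Its groups overlapped.

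The pseudogene differs from the Hspa8 transcript Hspa8-201 by 5 substitutions over 1941 aligned bases, so within that stretch only reads that cover such a base tell the sequences apart. Counted from the 5′ end of Hspa8-201, with the Hspa8 base first, they are G484A, C784T, C919T, G1592A and C1810T. Hspa8-201 itself was at 0 TPM in every unit. Against the coding transcript Hspa8-202, the pseudogene had 4 substitutions over 1884 aligned bases in 2 blocks. Reads across the break between these blocks can thus also tell those 2 sequences apart. The first and the last substitution against Hspa8-201 are shown, with the differing base in capitals.
Hspa8-201 at G484A: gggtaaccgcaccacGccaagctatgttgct
Gm15459 at G484A: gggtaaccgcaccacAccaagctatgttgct
Hspa8-201 at C1810T: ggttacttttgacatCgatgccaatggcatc
Gm15459 at C1810T: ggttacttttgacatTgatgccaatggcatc

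Summed with its 10 processed pseudogenes, Hspa8 was at 1796, 1575 and 2535 CPM in talin KO-labelled units 1 to 3 and at 1496, 1091, 1170 and 1436 CPM in control units 1 to 4. On this sum every talin KO-labelled unit was above every control unit. The log2 fold change was 0.60 ± 0.21 (SE; edgeR adjusted p = 0.0739), so the sign of the Hspa8 difference turned with the way copies were counted and neither form passed the test. The transcripts of Hspa8 itself are given without a test. The coding transcript Hspa8-202 was at 316, 245 and 375 TPM in talin KO-labelled units 1 to 3 and at 505, 342, 409 and 489 TPM in control units 1 to 4. The processed transcript Hspa8-209 was at 168, 252 and 387 TPM in talin KO-labelled units 1 to 3, and in control units 1 to 4 at 37.2, 28.2, 78.3 and 0.0013 TPM. For Hspa8-209 the groups did not overlap, and for Hspa8-202 they did. Whether the reads given to Gm15459 came from the pseudogene or from Hspa8 was not tested.

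**Figure D2:**
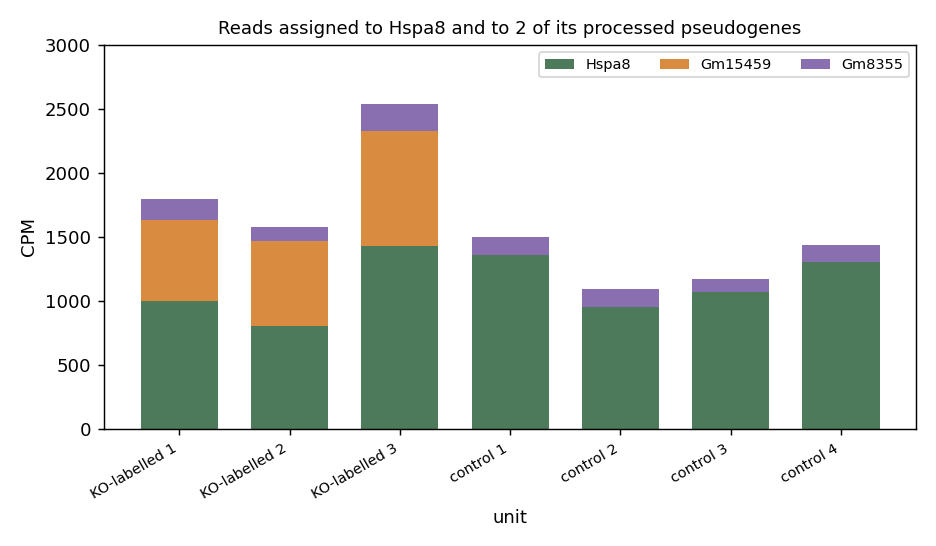
CPM assigned to Hspa8 and to the processed pseudogenes Gm15459 and Gm8355, stacked (y axis), in 3 talin KO-labelled and 4 control units (x axis). Gm15459 adds 627 to 900 CPM in the talin KO-labelled units and 1.22 to 1.81 CPM in the control units, which is too thin to see.

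The HSP90 genes had similar log2 fold changes above 0, and neither passed the test. Hsp90ab1 was at 1358, 1346 and 2072 CPM in talin KO-labelled units 1 to 3 and at 1258, 920, 1104 and 1189 CPM in control units 1 to 4. Hsp90aa1 was at 552, 501 and 788 CPM in talin KO-labelled units 1 to 3 and at 528, 355, 272 and 518 CPM in control units 1 to 4. Talin KO-labelled unit 3 was the highest of all units for both, and the groups overlapped for Hsp90aa1 through control units 1 and 4. Hsp90ab1 had a log2 fold change of 0.51 ± 0.20 (SE; edgeR adjusted p = 0.110), which was 0.28 without talin KO-labelled unit 3. With the GC and length offset it was 0.08, or 0.36 above the median of all genes. Hsp90aa1 had a log2 fold change of 0.55 ± 0.25 (SE; edgeR adjusted p = 0.163), which was 0.33 without talin KO-labelled unit 3. A short coding transcript, Hsp90ab1-208, had values in the other direction. It was at 7.97, 0 and 0 TPM in talin KO-labelled units 1 to 3 and at 180, 40.5, 59.4 and 142 TPM in control units 1 to 4, without overlap. It held 1.25% of the reads of Hsp90ab1, while the full transcript Hsp90ab1-201 held 89.9%.

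Hsph1 encodes the HSP110 protein that exchanges the nucleotide of HSP70. It was at 52.0, 65.8 and 105 CPM in talin KO-labelled units 1 to 3 and at 72.8, 37.9, 21.0 and 67.3 CPM in control units 1 to 4. The groups overlapped, with talin KO-labelled unit 1 below control units 1 and 4. Its log2 fold change was 0.59 ± 0.48 (SE; edgeR adjusted p = 0.454). It was 0.25 without talin KO-labelled unit 3 and 0.33 without control unit 3.

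Dnaja1 encodes a J protein of class A. It was at 381, 448 and 317 CPM in talin KO-labelled units 1 to 3 and at 414, 185, 149 and 475 CPM in control units 1 to 4. The talin KO-labelled units all lay above control units 2 and 3 and below control unit 4. Its log2 fold change was 0.32 ± 0.44 (SE; edgeR adjusted p = 0.657), between 0.09 without control unit 3 and 0.62 without control unit 4. Most of the reads did not fall on a full coding transcript: the processed transcripts Dnaja1-204 and Dnaja1-208 held 61.4% and 23.5% of them. The coding transcript Dnaja1-201 held 2.74% of the reads of the gene and was at 0.695, 0.583 and 0.670 TPM in talin KO-labelled units 1 to 3. In control units 1 to 4 it was at 2.04, 9.22, 5.40 and 1.78 TPM, so it was higher in control units 2 and 3, where the gene's total was lower. When that transcript alone stood for the gene, the log2 fold change was -2.78 (edgeR adjusted p = 0.0321). Of 22 alternatives 2 gave a call for Dnaja1, this one lower and 1 higher in the talin KO-labelled units. Dnaja1 overlaps Smu1 on the opposite strand, where reads cannot be told apart, and lies 2.79 megabases from Tln1 on chromosome 4.

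Hspa5 encodes BiP, the HSP70 of the ER. It was at 729, 636 and 727 CPM in talin KO-labelled units 1 to 3 and at 551, 375, 315 and 535 CPM in control units 1 to 4. Every talin KO-labelled unit was above every control unit, and the talin KO-labelled units were close together. The means were 697 ± 53.1 CPM in the talin KO-labelled units and 444 ± 117 CPM in the control units (SD, n = 3 and n = 4). The log2 fold change of 0.65 ± 0.20 (SE) narrowly missed the threshold of 0.05 (edgeR adjusted p = 0.0577), and it was past it in 4 of 22 alternatives, 1 of them the fit without control unit 1 (edgeR adjusted p = 0.0421). The coding transcript Hspa5-202 carried 92.0% of the reads, at 224, 214 and 213 TPM in talin KO-labelled units 1 to 3 and at 185, 117, 112 and 174 TPM in control units 1 to 4. It did not overlap between the groups either. The plasma cell markers, a list of cells with a large ER, moved in the same direction, and their part in the Hspa5 difference was not tested.

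**Figure D3:**
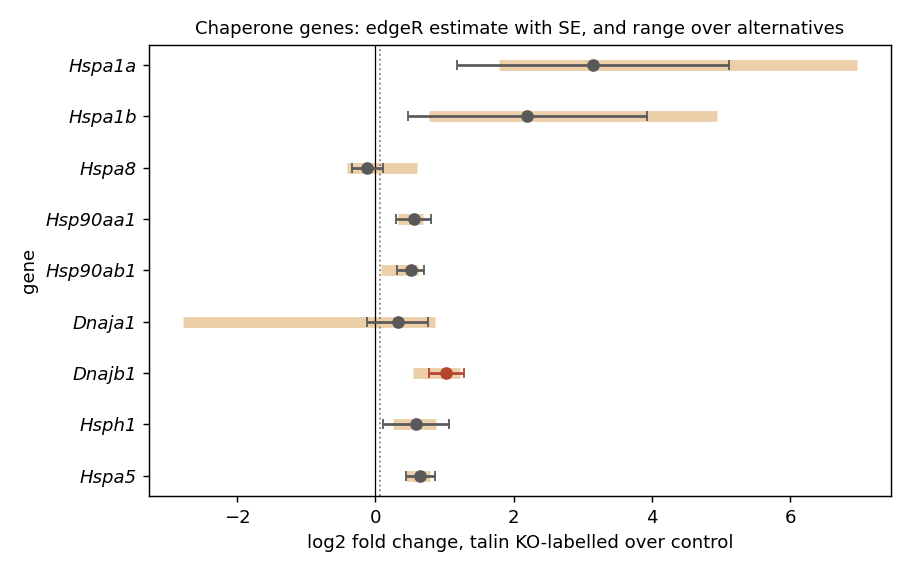
Log2 fold change of each chaperone gene, talin KO-labelled over control (x axis; points, bars ± SE), with the lowest and highest estimate over the alternative fits (broad bands) and the median of all genes (dotted line, 0.06). Dnajb1, the coloured point, passed the test, and the bands of Hspa8 and Dnaja1 cross 0.

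The members shared an order of the control units that the groups do not explain. Control units 1 and 4 were both above control units 2 and 3 for 9 of 9 members, against 25.5% of the 15775 genes tested. Talin KO-labelled unit 3 was the highest of its group for 7 of the 9, against 36.9% of all genes. Control units 1 and 4 were also the least deeply sequenced, with 13017008 and 13627264 reads. The SD of log2(CPM + 0.5) over the 4 control units was larger for Hspa1a than for 99.97% of the 9218 genes that averaged 10 CPM or more, and larger for Dnaja1 than for 96.8%. It was larger for Hsph1 than for 96.7% of them, for Hsp90aa1 than for 92.2%, for Dnajb1 than for 91.1% and for Hspa5 than for 89.0%. Hspa8 and Hsp90ab1, the constitutive members, were nearer the middle, at 65.5% and 49.7%. In a list of 16 early response genes, 14 had the same order of control units, such as Fos and Jun, and Egr1 and Ier2 did not. Their mean log2 CPM was 8.20, 8.62 and 8.43 in talin KO-labelled units 1 to 3 and 7.06, 5.79, 5.55 and 7.29 in control units 1 to 4. All 16 had a log2 fold change above 0, with a median of 1.44, against 54.2% of all genes and a median of 0.06, and 7 rose, against 7.07% of all genes. That order of control units also held for 8 of 10 myeloid and 6 of 10 B cell markers. It held for 5 of 7 dendritic cell and 5 of 9 neutrophil precursor markers. It held for 4 of 12 regulatory T cell, 3 of 9 cytotoxic and 1 of 8 plasma cell markers. Of other chaperone genes, 5 of 20 co-chaperones and 3 of 24 ER genes had it. So did 3 of 19 other J proteins and 1 of 14 TRiC and prefoldin genes. The part of the early response signal, or of other cells, in the differences of the chaperone genes was not tested. The 2 parts of a unit agreed far better than units of a group did. The largest fold between parts was 1.02 to 1.3 over the 9 members, in units with at least 100 reads of the gene over both parts.

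**Figure D4:**
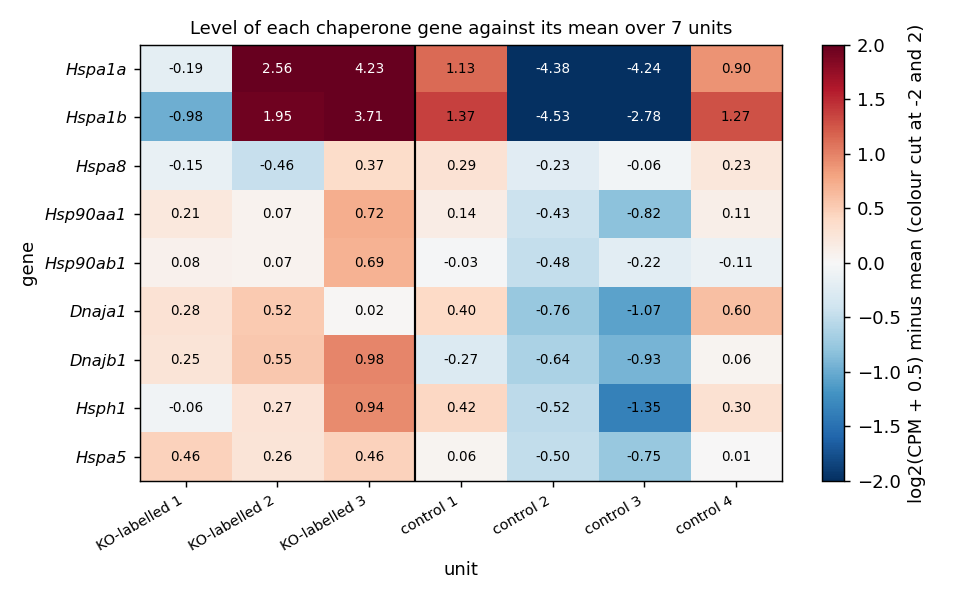
Log2(CPM + 0.5) of each chaperone gene minus its mean over the 7 units (colour, cut at -2 and 2, and printed in each cell), with talin KO-labelled units left of the line and control units right of it. Control units 2 and 3 are below control units 1 and 4 in every row, and talin KO-labelled unit 3 is the highest of its group in 7 of 9 rows.

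For 8766 genes, centred log2 CPM was compared over the 7 units by the root mean square difference. Members, pseudogenes and numbered gene models were left out of these. The genes most like Dnajb1 were Per2 (0.114), Gadd45b (0.135), Gadd45a (0.169), Atf4 (0.175) and Slc8b1 (0.194). Those most like Hspa5 were Slc15a4 (0.109), Zfp568 (0.155), Tob2 (0.167), Map1lc3b (0.179) and Slc8b1 (0.182). Slc8b1 was thus named for both. Among the members left out, Hsp90aa1 was at 0.169 from Hspa5, nearer than Map1lc3b and Slc8b1, and at 0.275 from Dnajb1.

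Among other genes of the chaperone system, 15 of 101 tested genes in 7 lists passed the test, or 14.9%, near the 13.6% of all genes, and 7 of the 15 were of the ER. Of 24 ER chaperone and UPR genes, 6 rose and 1 fell, 19 had a log2 fold change above 0, 13 did not overlap between the groups, and the median was 0.36. Over all genes 7.07% rose and 6.52% fell, 54.2% were above 0, 30.8% did not overlap and the median was 0.06. The plasma cell markers also summed higher in the talin KO-labelled units (856 to 2080 CPM) than in the control units (109 to 414 CPM). Their part in the differences of the ER genes was not tested. The risers included sensors and the factor that one of them splices. Ern1, the sensor that splices Xbp1, was at 39.1, 40.9 and 55.4 CPM in talin KO-labelled units 1 to 3 and at 19.4, 19.1, 23.0 and 17.4 CPM in control units 1 to 4 (log2 fold change 1.19 ± 0.17, SE; edgeR adjusted p = 0.00331). Xbp1, the spliced factor, was at 131, 106 and 156 CPM in talin KO-labelled units 1 to 3 and at 84.2, 82.5, 74.9 and 76.6 CPM in control units 1 to 4 (0.72 ± 0.14; edgeR adjusted p = 0.0130). The control units lay close together for both, unlike those of Hspa5. Syvn1, a ubiquitin ligase that removes misfolded ER proteins, rose by 0.85 ± 0.13 on the log2 scale (edgeR adjusted p = 0.00541). Herpud1, of the same degradation pathway, rose by 0.65 ± 0.14 (edgeR adjusted p = 0.0168). Creld2, an ER stress-induced gene, rose by 1.07 ± 0.24 (edgeR adjusted p = 0.0216), and the sensor Atf6 rose by 0.63 ± 0.16 (edgeR adjusted p = 0.0286). Ern1, Syvn1 and Xbp1 were called in all 7 fits with a unit left out, Herpud1 in 6, Creld2 in 4, and Atf6 and Dnajc3 in 2. Dnajc3, a J protein that assists BiP, fell to 142 ± 19.1 CPM in the talin KO-labelled units, against 199.7 ± 12.7 CPM in the control units (-0.49 ± 0.13; edgeR adjusted p = 0.0355), and is named to complete the count. With the GC and length offset Ern1 kept its call (0.73, or 1.01 above the median of all genes; edgeR adjusted p = 0.0194). The other 5 risers did not, with log2 fold changes of 0.22 to 0.51, or 0.50 to 0.79 above that median, and Dnajc3 did not either (edgeR adjusted p = 0.0653). Hsp90b1, the HSP90 of the ER, was at 554, 362 and 557 CPM in talin KO-labelled units 1 to 3 and at 478, 365, 362 and 376 CPM in control units 1 to 4, and did not pass (edgeR adjusted p = 0.263). The ER stress element of the Hspa5 window also stood in windows of 7 of the 20 list genes with an entry, Calr, Canx, Creld2, Dnajc3, Hsp90b1, Pdia6 and Syvn1. Of these 7, Creld2 and Syvn1 rose, Dnajc3 fell and 4 did not pass the test.

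Of 20 co-chaperones of HSP70 and HSP90, 3 rose and 1 fell, with a median of 0.02. Stip1, the adaptor that links HSP70 to HSP90, rose by 0.57 ± 0.15 on the log2 scale (SE; edgeR adjusted p = 0.0368), Unc45a, an HSP90 partner for myosin folding, by 0.68 ± 0.15 (edgeR adjusted p = 0.0216) and Bag2, an HSP70 exchange factor at low level, by 1.98 ± 0.56 (edgeR adjusted p = 0.0447). Ppid, a cyclophilin bound to HSP90, fell (-0.51 ± 0.14; edgeR adjusted p = 0.0358). Of 19 other J proteins 2 fell, Dnaja2 (-0.48) and Dnajb14 (-0.61), with a median of -0.17. The 9 other HSP70 and HSP110 genes gave 0 calls with edgeR, 2 at an unadjusted p under 0.05, 0 calls with limma-voom and 1 with DESeq2. The lowest adjusted p was that of Hspa2 (1.56 ± 0.50; edgeR adjusted p = 0.0600), followed by Hspa12a. Of the heat shock factors and small heat shock proteins, 7 of 11 were tested with 0 calls in edgeR, DESeq2 and limma-voom and 2 at an unadjusted edgeR p under 0.05. Hspb1, a small heat shock protein at a low level, had the lowest adjusted p (2.06 ± 0.67; edgeR adjusted p = 0.0651). Hsf1 was at 57.5, 76.7 and 80.2 CPM in talin KO-labelled units 1 to 3 and at 51.4, 58.0, 57.2 and 49.1 CPM in control units 1 to 4 (0.40 ± 0.14; edgeR adjusted p = 0.0832). Its sign turned under the GC and length offset, to -0.22, or 0.06 above the median of all genes. Of 8 mitochondrial chaperones and proteases, Yme1l1 fell (-0.62), and of 14 subunits of the TRiC chaperonin and prefoldin, Vbp1 fell (-0.66). When each unit was left out in turn, the calls held in 4 of 7 fits for Unc45a, in 3 for Dnaja2, Yme1l1 and Vbp1, in 2 for Stip1, Bag2 and Dnajb14 and in 1 for Ppid, and the log2 fold change of Bag2 was 0.89 without talin KO-labelled unit 3. With the GC and length offset Ppid, Yme1l1 and Vbp1 were at -0.16, -0.17 and -0.11, which is above the median of all genes by 0.12, 0.11 and 0.17, so their direction relative to all genes turned. Of the 8 calls in these lists, that of Dnajb14 alone held with the offset (-0.51; edgeR adjusted p = 0.0218), and it was then 0.22 below the median of all genes, against 0.67 below it without the offset.

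**Figure D5:**
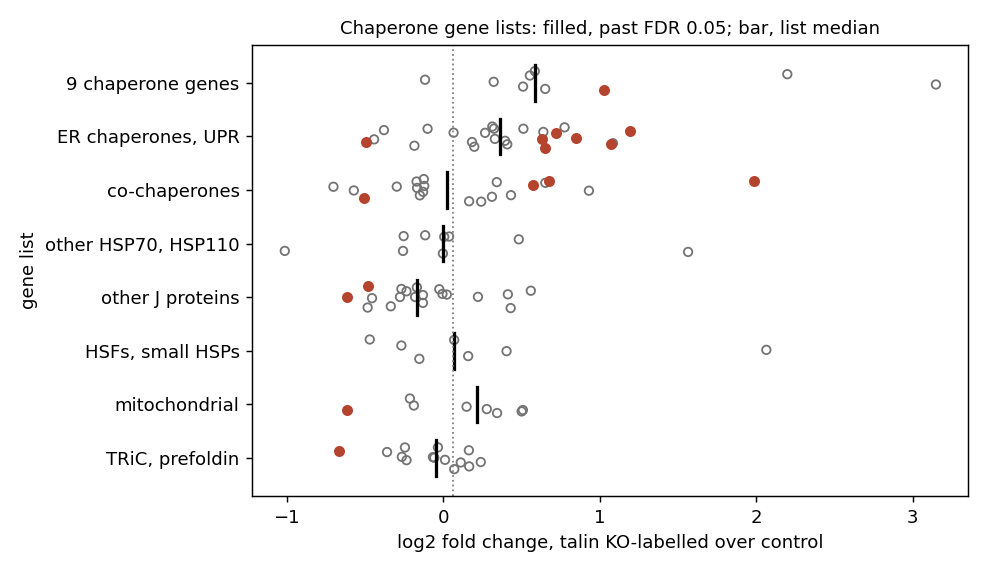
Log2 fold change, talin KO-labelled over control (x axis), of the 9 chaperone genes and of the tested genes of 7 other chaperone lists (rows). Each point is a gene, filled points are past an adjusted p of 0.05, bars are list medians and the dotted line is the median of all genes (0.06); the ER list has 6 filled points above 0 and 1 below.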

How the data were processed

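RNA of the sorted cells was sequenced from non-stranded libraries, per the labels' protocols. The deposited expected counts (estimated reads per transcript) and TPM came from kallisto runs against GRCm38 (submitters' processing notes); the sources used here do not name its version. The authors deposited the counts without normalization and the TPM scaled by effective length, per the file headers. Lengths and effective lengths are other columns of the deposited tables. The 88198 transcripts were matched to GENCODE genes, and 2079 without a gene, holding 1.17% to 1.28% of reads, were left out of tests. Counts were summed per gene and over the 2 parts of a unit and rounded to whole numbers.

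Genes were tested in R 4.3.3 with edgeR 4.0.16: filterByExpr, TMM and a robust quasi-likelihood fit on the group, with Benjamini-Hochberg adjustment over 15775 genes at 0.05. CPM are counts over the TMM-scaled library size. SEs were derived from the F statistic. TPM were recomputed from summed counts. The step was tested on simulated data. The same numbers of talin KO-labelled and control units do not pair animals in the labels.

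All 9 members are named. From 7 further chaperone lists, genes past the threshold are named (up to 6 a list, otherwise the 2 of lowest adjusted p). Hsf1, Hsp90b1, Xbp1, Tln1 and the 5 non-member genes most like Dnajb1 and Hspa5 (mean of at least 10 CPM) are named too. Members and lists were chosen with earlier results of these data known. Alternatives used other scalings and filters, DESeq2 1.42.0, limma 3.58.1, a replicate block, an offset for GC content and length fitted with mgcv 1.9.3, single parts, units left out, log2(TPM + 1) and, added after the data were seen, sums with copies and single coding transcripts.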

Additional observations from a re-analysis of the deposited data

Results flagged for a closer look

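Hsp90b1 and Hspb1, 2 related chaperone genes, had 1 control unit apart from the rest. Hsp90b1 was at 478 CPM in control unit 1, far from the 362 to 376 CPM of the other control units. Hspb1, a small heat shock protein gene, was at 0.315 CPM in control unit 1 and at 0.147 to 0.152 CPM in the others, a level of few reads. Of 41 groups of values examined in this way 2 stood out, and chance alone gives about 1 in 20.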

How the results depend on the processing

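With 3 and 4 units a group, of which control units 1 and 4 are the shallowest, and with 13.6% of all genes called, a single call among the members carries little weight, and Dnajb1 kept its call in 15 of 22 alternatives. Of 196 alternative values of the members, 179 kept direction and side of the threshold. Most of these belong to members that were not called and stayed so, whatever the size of their estimate, so the count says little about stability. Over all genes, 2144 calls became 3546 with the DESeq2 Wald test, 3336 with the GC and length offset, 1062 with limma on log2(TPM + 1) and between 758 and 1905 when a unit was left out. With the offset 22.3% of calls were higher, against 52.1% without it. Among the 9 members, 1 call became 3 with DESeq2 (Dnajb1, Hspa5, Hsp90ab1), 2 without a count filter, 2 with single coding transcripts, 0 with the offset (3 at an unadjusted edgeR p under 0.05) and 0 to 1 when a unit was left out. In the 7 other lists, 15 calls became 27 with DESeq2, 3 with limma on log2(TPM + 1) and 3 to 16 when a unit was left out. The same unit numbers did not deviate together (r = 0.04, -0.08 and -0.12), so the replicate block rests on a shared number only. With the replicate block, which drops control unit 4, there were 553 calls over all genes, 0 among members (3 at an unadjusted edgeR p under 0.05) and 2 in the other lists. With the block and the offset together there were 2 among members, Dnajb1 (0.74; edgeR adjusted p = 0.0270) and Dnaja1 (0.86; edgeR adjusted p = 0.0291), both higher, and 3 in the other lists. The sign turned for Hspa8, to 0.056 without talin KO-labelled unit 2 (-0.37 at the lowest with a unit left out), 0.081 with limma on log2(TPM + 1) and 0.60 with copies, for Dnaja1, to -2.78 with the single coding transcript, for Hsf1, to -0.22 with the offset and -0.24 with block and offset, for Gm8355, to -0.00626 with the offset and -0.039 with both, and for Tln1, to -0.024 with the offset, -0.021 with both and -0.23 with limma on log2(TPM + 1). Both forms of the offset moved the median of all genes, to -0.28; relative to it Hsf1 was 0.06 and 0.04 above, Gm8355 0.27 and 0.24 above and Tln1 0.26 and 0.25 above, so these did not turn relative to all genes. Beyond the change in what was counted, the cause was not tested.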
